A study of Mus musculus with 10 samples.

Results

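Transcripts of 9 type I interferon-stimulated genes (Isg15, Ifit1, Ifit3, Irf7, Oasl2, Stat2, Bst2, Rtp4 and Usp18) were followed across 10 libraries of bleomycin-injured mouse lung. The genes were chosen by symbol, all 9 were found among the 33347 genes of the count table, and all 9 had enough counts to be among the 10844 genes tested. All tissue came from wild-type mice treated with bleomycin, which breaks DNA and is used to bring about lung fibrosis. The 5 ALDHbr samples were lung tissue of mice injected with bone marrow cells of high aldehyde dehydrogenase (ALDH) activity, and the 5 ALDHdim samples were lung tissue of mice injected with marrow cells of low ALDH activity. The sources used here do not give age, sex, strain, or the time after bleomycin or after injection. No lung without bleomycin and no lung given bleomycin alone was analysed, so the comparison shows nothing of how far bleomycin itself moved these genes. The labels do not say whether the 5 samples of a group came from 5 animals, so the tests measure only the spread among the samples, which may be technical.

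Type I interferons are cytokines that cells secrete when they sense foreign or misplaced nucleic acid. They bind a receptor made of Ifnar1 and Ifnar2, whose kinases Jak1 and Tyk2 phosphorylate Stat2. Stat2 and Irf9 are subunits of ISGF3, a complex that binds the interferon-stimulated response element (ISRE) in front of its target genes. The targets include antiviral effectors, more of the pathway's own transcription factors, and brakes on the pathway. In lung, epithelium, endothelium, fibroblasts and macrophages can all respond in this way.

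The response element is shown first because it is the site that ISGF3 binds. RefSeq promoter windows (GRCm38.p6, 250 bases before to 50 bases after the annotated start) were matched for 7 of the 9 genes, Rtp4 and Usp18 being the others. The core of the ISRE was searched as GAAANNGAAA on both strands, allowing overlapping matches. It was present in 5 of the 7 windows (Isg15, Ifit1, Ifit3, Bst2 and Stat2), or 71.4%, in 18 of 43 windows of other interferon-stimulated genes (41.9%), and in 1079 of 27025 genes with a window (3.99%). The stretches that hold the matches are printed on the gene's own strand, 5′ to 3′, with the matches in capitals (TTTCNNTTTC is the same core on the opposite strand).
Isg15, chr4:156200845-156200926, minus strand: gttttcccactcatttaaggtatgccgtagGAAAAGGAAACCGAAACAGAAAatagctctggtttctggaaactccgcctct
Bst2, chr8:71537557-71537632, minus strand: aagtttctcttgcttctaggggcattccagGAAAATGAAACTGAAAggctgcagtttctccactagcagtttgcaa
Ifit1, chr19:34640755-34640843, plus strand: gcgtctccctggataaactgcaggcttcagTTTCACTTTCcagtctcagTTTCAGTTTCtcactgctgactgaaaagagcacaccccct
Ifit3, chr19:34583343-34583446, plus strand: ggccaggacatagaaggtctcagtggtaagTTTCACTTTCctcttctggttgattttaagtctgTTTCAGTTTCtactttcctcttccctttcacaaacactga
Stat2, chr10:128270248-128270315, plus strand: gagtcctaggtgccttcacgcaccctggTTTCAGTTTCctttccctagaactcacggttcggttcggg

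Isg15 held 3 overlapping matches between −78 and −57 bases from the start, and Bst2 held 2 overlapping matches between −130 and −115 bases. Ifit1 and Ifit3 each held 2 separate matches, and Stat2 held 1 at −222 to −213 bases. The second core of the pair in Ifit1 and in Ifit3 has the same 10 letters as the single match in Stat2. The windows of Irf7 and Oasl2 did not contain these letters, which says only that the motif is not in this window. A match describes the sequence and does not show that a factor was bound in these lungs.

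**Figure D1:**
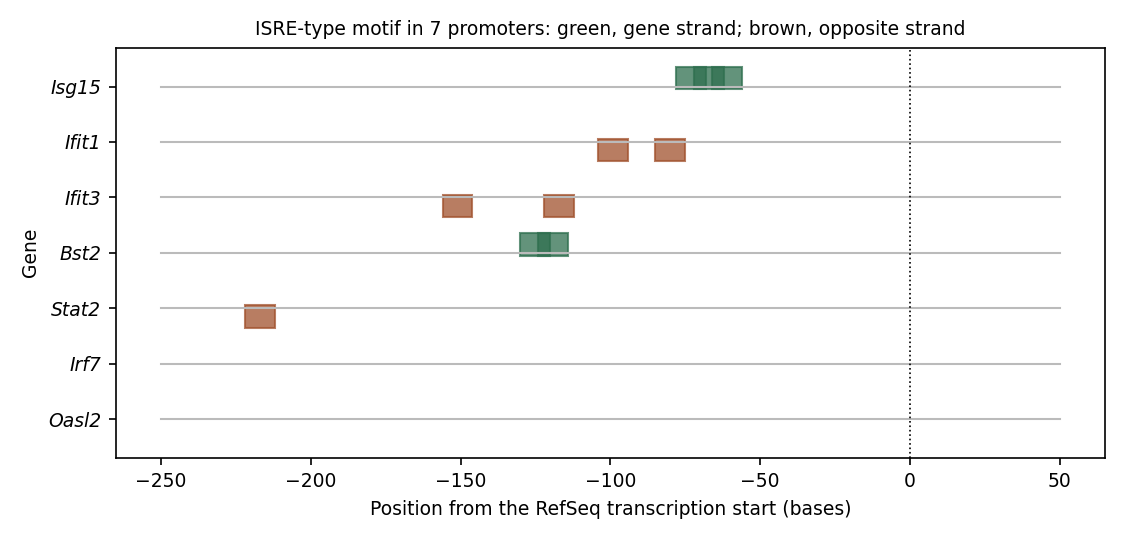
Positions of the ISRE-type core in the 7 promoter windows, in bases from the RefSeq start (x axis), 1 line per gene. Boxes above the line are matches on the gene's strand and boxes below it are matches on the opposite strand. The matches lie between −222 and −57 bases in 5 genes, and Irf7 and Oasl2 have none.

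None of the 9 genes was called different between ALDHbr and ALDHdim recipients. Levels are CPM, the share of a library's counts in tested genes after TMM scaling, and because reads came from the 3′ end of each RNA they do not scale with transcript length. In edgeR's quasi-likelihood test over all 10844 genes, 0 of the 9 passed an adjusted p of 0.05, each with an adjusted p of 0.999, and 0 of the 9 had an unadjusted p under 0.05 (1 of the 9, Stat2, without ALDHbr 1). Over all genes tested, 0% were called at the adjusted threshold and 3.71%, or 402 genes, had an unadjusted p under 0.05. Without ALDHbr 1 that number was 1141 of 11024, and over the other libraries left out in turn it ran from 272 to 479. The ALDHbr and ALDHdim values overlapped for all 9 genes, and 0.535% of all tested genes had groups that did not overlap. The 95% interval of the ALDHbr over ALDHdim fold lay within 2-fold in either direction for all 9, as it did for 90.5% of tested genes. It was narrowest for Bst2, from 0.775 to 1.14, and widest for Isg15 (0.657 to 1.85), Irf7 (0.642 to 1.80) and Stat2 (0.536 to 1.29). These intervals do not show that the groups were alike, and those of Isg15, Irf7, Stat2 and Ifit1 still allow a difference of 1.5-fold, the last 2 as lower levels with ALDHbr cells.

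Estimates were below 0, meaning lower in ALDHbr recipients, for 6 of the 9 genes, against 48.1% of all tested genes. The median log2 fold change of the 9 was −0.05, and that of all tested genes was 0.01. The number below 0 was 3 without ALDHbr 2, without ALDHdim 4 or without ALDHdim 5, and it was 9 without ALDHdim 2.

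**Figure D2:**
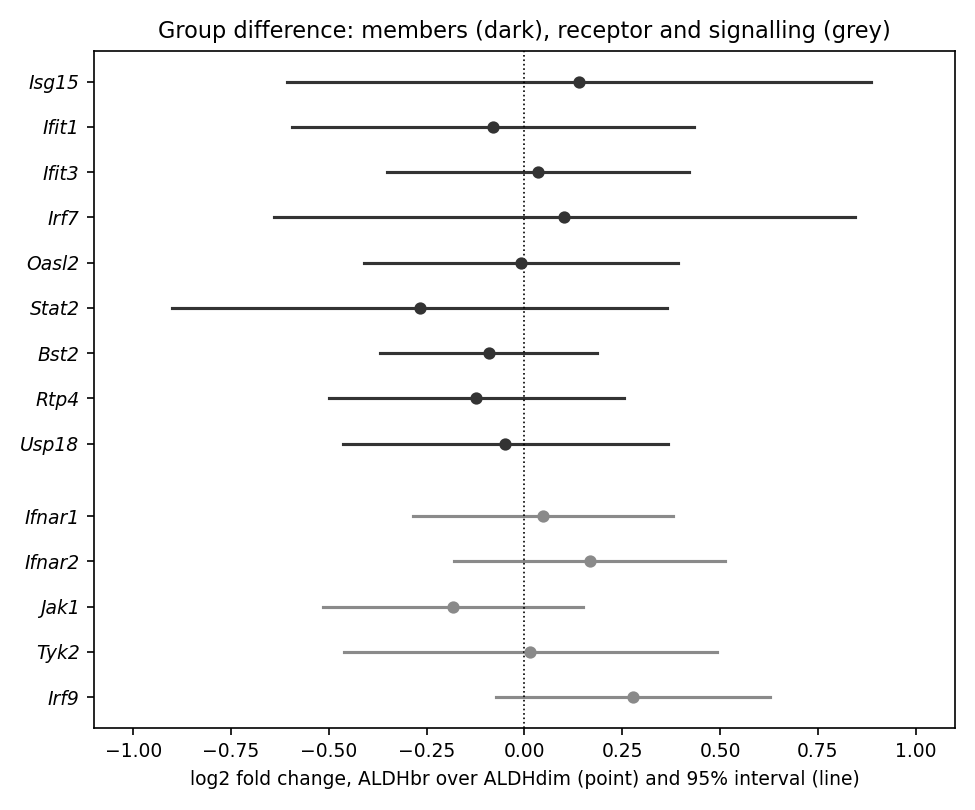
Log2 fold change of ALDHbr over ALDHdim (points) with its 95% interval (lines) for the 9 genes (dark) and for Ifnar1, Ifnar2, Jak1, Tyk2 and Irf9 (grey). Every interval crosses 0, and those of Isg15, Irf7 and Stat2 are the widest.

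Stat2, the subunit that gives ISGF3 its transactivation domain, was the most uneven of the 9 among ALDHbr recipients. Its level was 46.2, 9.78, 12.9, 33.0 and 18.3 CPM in ALDHbr 1 to 5 and 31.2, 35.3, 28.1, 36.2 and 28.6 CPM in ALDHdim 1 to 5. The ALDHbr values ran from far below to above the ALDHdim values, which lay close together. The highest library was 4.73 times the lowest within ALDHbr and 1.29 times the lowest within ALDHdim. Errors of means are SD over 5 libraries. The means were 24.1 ± 15.3 and 31.9 ± 3.76 CPM, with a log2 fold change of −0.27 (SE 0.30), the estimate farthest from 0 among the 9. Without ALDHbr 1 it was −0.66 (SE 0.26, unadjusted p = 0.0223 and adjusted p = 0.399 in edgeR). It was −0.14 without ALDHbr 2, −0.12 without ALDHbr 3 and −0.16 without ALDHbr 5. The lowest values rest on few reads, 5 counts in ALDHbr 2 and 10 in ALDHbr 3. These are the libraries of lowest depth, and over the 10 libraries the log2 level of Stat2 had r = 0.82 and rho = 0.60 with the log10 of total counts, or r = 0.65 without the 2 libraries farthest from the median depth. The part of depth in this spread was not tested.

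Irf7, the transcription factor that amplifies the production of interferon alpha, also spanned a wide range. Its level was 41.2, 11.7, 16.8, 44.8 and 47.5 CPM in ALDHbr 1 to 5 and 29.8, 15.6, 34.9, 49.7 and 35.7 CPM in ALDHdim 1 to 5. Low libraries stood in both groups, ALDHbr 2 and 3 and ALDHdim 2, and the rest lay between 29.8 and 49.7 CPM. The means were 32.4 ± 16.8 and 33.1 ± 12.3 CPM, and the log2 fold change was 0.10 (SE 0.34). The sign of the fitted estimate differs from that of the difference in means. The count in ALDHbr 2 was 6.

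Isg15 encodes a ubiquitin-like protein that is attached to other proteins and is also secreted. Its level was 31.7, 33.3, 45.3, 59.0 and 77.5 CPM in ALDHbr 1 to 5 and 36.9, 19.7, 38.3, 67.4 and 67.6 CPM in ALDHdim 1 to 5. Libraries 4 and 5 were the highest in each group, and ALDHdim 2 was the lowest of all. The means were 49.3 ± 19.2 and 45.96 ± 21.0 CPM, a log2 fold change of 0.14 (SE 0.34). Isg15 spread 3.94-fold from its lowest to its highest library. Its biological coefficient of variation (BCV), the variation between libraries beyond counting noise, was 35.7%, and 96.2% of tested genes had a lower one. That of Irf7 was 35.9%.

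Ifit1 and Ifit3 encode tetratricopeptide proteins, and Ifit1 binds viral RNA that lacks the host's cap modification. Ifit1 stood at 67.8, 48.9, 77.6, 93.6 and 96.6 CPM in ALDHbr 1 to 5 and at 78.8, 55.5, 53.6, 125 and 102 CPM in ALDHdim 1 to 5. Ifit3 stood at 67.1, 68.5, 55.6, 77.9 and 74.1 CPM in ALDHbr 1 to 5 and at 47.6, 57.5, 56.1, 79.1 and 95.6 CPM in ALDHdim 1 to 5. For both genes the ALDHdim group held the widest range, with libraries 4 and 5 at its top. Ifit1 averaged 76.9 ± 19.6 and 83.1 ± 30.9 CPM, a log2 fold change of −0.08 (SE 0.24). Ifit3 averaged 68.6 ± 8.48 and 67.2 ± 19.7 CPM, a log2 fold change of 0.04 (SE 0.18). Ifit3 has a near copy, Ifit3b. Of the 420 windows of 81 bases in the last 500 bases of the longest Ifit3 transcript, 36 (8.57%) were also in Ifit3b transcripts, so some reads could have been assigned to either. Ifit3b itself averaged 13.6 ± 4.31 and 14.8 ± 3.80 CPM, a log2 fold change of −0.22 (SE 0.27). No such window of the other 8 genes was found in another gene.

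Bst2 (tetherin), which holds budding enveloped virus at the cell surface, had the narrowest range of the 9 and the most counts, while Usp18 had a slightly lower BCV (15.1% against 15.5%). Its level was 163, 156, 163, 213 and 189 CPM in ALDHbr 1 to 5 and 188, 174, 168, 228 and 188 CPM in ALDHdim 1 to 5. Library 4 was the highest in each group, and the highest of all 10 was 1.46 times the lowest. The means were 177 ± 23.9 and 189 ± 23.4 CPM, a log2 fold change of −0.09 (SE 0.13). Bst2 is also a surface marker of mouse plasmacytoid dendritic cells, which are major producers of type I interferon. Siglech, a marker of those cells, averaged 5.25 ± 3.18 and 4.79 ± 2.17 CPM and was below the count filter.

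Oasl2, a protein of the 2′-5′ oligoadenylate synthetase family, stood at 58.9, 44.99, 47.9, 56.6 and 31.7 CPM in ALDHbr 1 to 5. In ALDHdim 1 to 5 it stood at 44.0, 36.3, 50.2, 62.3 and 52.7 CPM. ALDHbr 5, where Isg15 was highest, was the lowest library for Oasl2. The means were 48.0 ± 10.8 and 49.1 ± 9.72 CPM, a log2 fold change of −0.01 (SE 0.19), the estimate nearest to 0. Rtp4, a receptor transporter protein that interferon also induces, stood at 60.2, 41.1, 36.2, 59.0 and 37.5 CPM in ALDHbr 1 to 5 and at 51.8, 51.0, 39.98, 59.8 and 57.7 CPM in ALDHdim 1 to 5. Its means were 46.8 ± 11.8 and 52.0 ± 7.72 CPM, a log2 fold change of −0.12 (SE 0.18). ALDHbr 1 and 4 were the high ALDHbr libraries for both genes.

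Usp18 is the brake among the 9, a protease that removes Isg15 from proteins and also blocks signalling at Ifnar2. Its level was 29.8, 17.6, 28.5, 26.7 and 25.8 CPM in ALDHbr 1 to 5 and 23.4, 21.2, 24.7, 35.4 and 32.4 CPM in ALDHdim 1 to 5. ALDHbr 2 was the lowest library and ALDHdim 4 the highest, and the other ALDHbr libraries lay inside the ALDHdim range. The means were 25.7 ± 4.76 and 27.4 ± 6.13 CPM, a log2 fold change of −0.05 (SE 0.20).

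On GRCm38 (GENCODE M21), Isg15 lies on chromosome 4 from 156199424 to 156200818, Oasl2 on 5 from 114896936 to 114912234, Usp18 on 6 from 121245906 to 121270917 and Irf7 on 7 from 141262706 to 141266481. Bst2 lies on 8 from 71534255 to 71537456, Stat2 on 10 from 128270559 to 128292849 and Rtp4 on 16 from 23520291 to 23614222. Ifit3 (34583531 to 34588731) and Ifit1 (34640871 to 34650009) are close to each other on 19. Whether the counting used strand is not stated in the labels. Irf7 shares 45 exon bases with Phrf1 on the opposite strand, and that gene had 285 counts in all. Rtp4 shares 296 exon bases with Gm45338 on the same strand (7 counts), and Usp18 shares 124 with Gm44148 on the opposite strand (1 count). The sources used here do not give how reads over shared bases were assigned. The counts of these other genes therefore do not limit the number of reads in doubt.

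**Figure D3:**
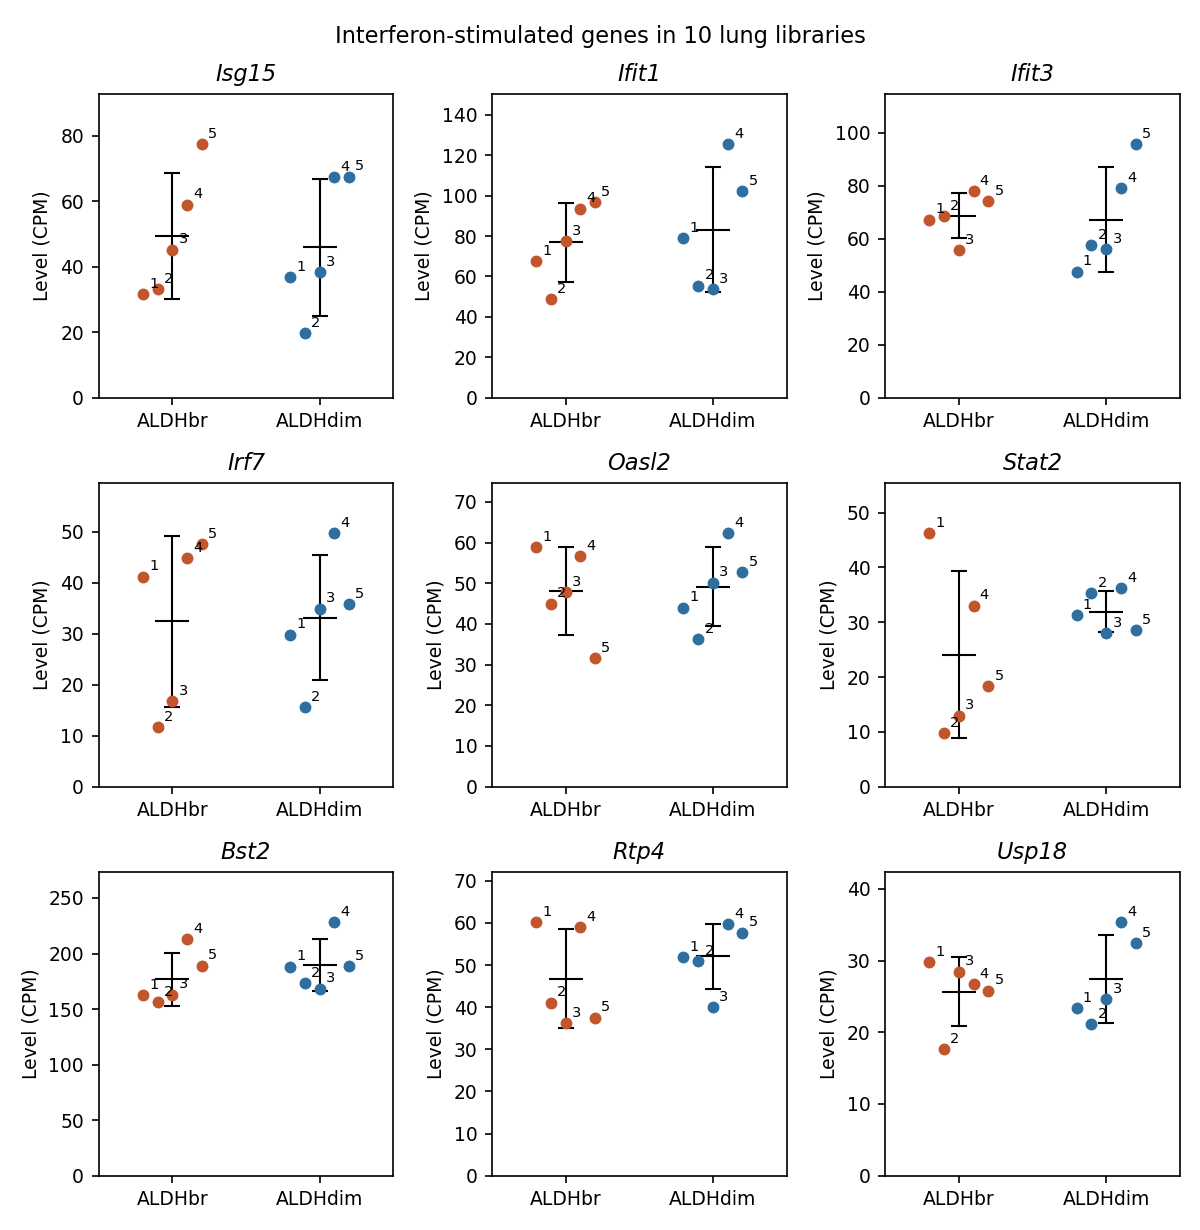
Level (CPM, y axis from 0) of each of the 9 genes in the 5 ALDHbr (orange) and 5 ALDHdim (blue) libraries, numbered by replicate, with the mean and SD as black bars. The groups overlap in every panel, Stat2 is spread over 9.78 to 46.2 CPM in ALDHbr alone, and Bst2 keeps within 156 to 228 CPM.

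Most of the 9 genes varied in the same direction from library to library, with exceptions. Their score, the mean over the 9 genes of log2 CPM centred per gene, ran from −0.50 in ALDHbr 2 to 0.29 in ALDHbr 4 among ALDHbr libraries and from −0.32 in ALDHdim 2 to 0.46 in ALDHdim 4 among ALDHdim libraries. Expressed as a fold, this is 1.73 within ALDHbr and 1.71 within ALDHdim, while the group means differed by −0.11 on the log2 scale. The 3 highest libraries were ALDHdim 4, ALDHdim 5 and ALDHbr 4, and the 3 lowest were ALDHbr 2, ALDHdim 2 and ALDHbr 3. Over the 36 pairs of genes, 35 had a positive correlation of log2 CPM across the 10 libraries, with 17 above 0.5 and a median r of 0.48, or 0.50 after each group's mean was subtracted. The libraries share their depth and scaling among all genes, and these values are given as a description.

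The closest pair was Ifit1 with Bst2 (r = 0.83, rho = 0.85), and Isg15 with Ifit1 was near it (r = 0.83, rho = 0.79). Ifit1 with Usp18 had r = 0.80 and Isg15 with Irf7 r = 0.66. Stat2 and Rtp4 went together (r = 0.80) and apart from Isg15, which had r = −0.09 with Stat2 and 0.03 with Rtp4. ALDHbr 5 shows the difference, with the highest Isg15 and Irf7 of the ALDHbr group, the lowest Oasl2 of all 10 libraries and a low Rtp4. Among the 10 libraries ALDHbr 3 and 5 also had the most genes detected, 24722 and 25377 against 17044 to 21209 in the others, and the part of this in their pattern was not tested. With the log10 of total counts, r was 0.82 for Stat2, 0.56 for Rtp4 and −0.08 for Isg15. Without the 2 libraries farthest from the median depth it was 0.65, 0.63 and 0.03. The part of depth in the pairing of Stat2 with Rtp4 was not tested.

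**Figure D4:**
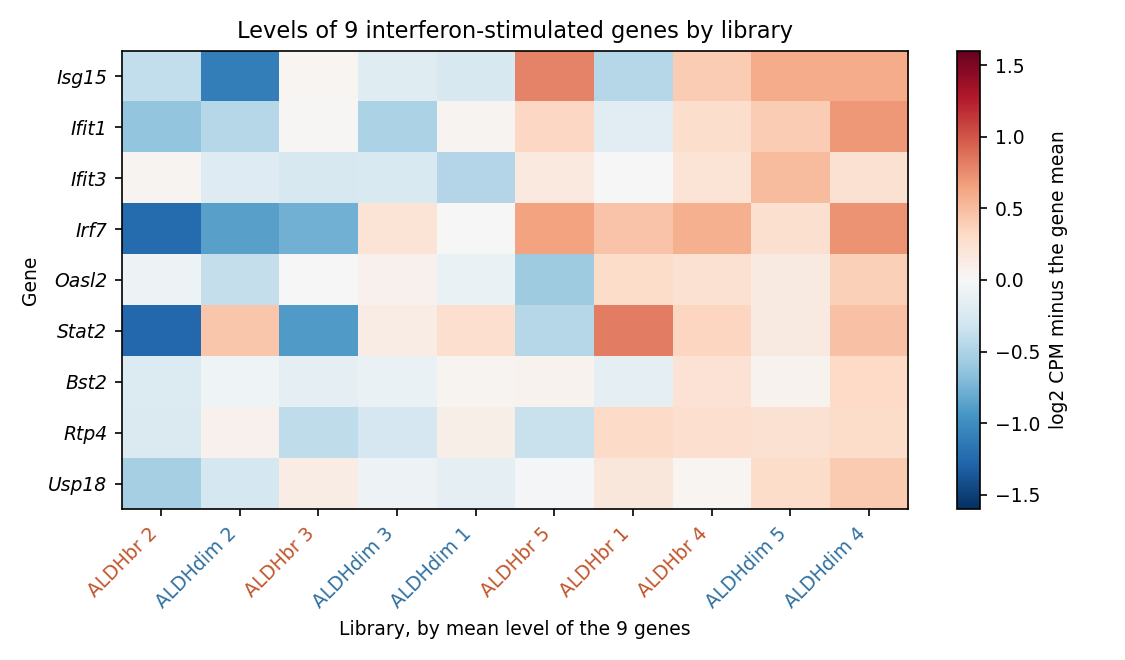
Log2 CPM of each gene minus its mean over the 10 libraries (colour), with libraries ordered from left to right by the score of the 9 genes. Labels are orange for ALDHbr and blue for ALDHdim, and both colours stand at each end, with ALDHbr 2 lowest and ALDHdim 4 highest.

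The rest of the pathway did not separate the groups either. Of 18 type I interferon ligand genes listed, 2 had a row, Ifnk and Ifnz, each with 1 count over all 10 libraries, and the others were not analysed here. Of the receptor chains Ifnar1 and Ifnar2, their kinases Jak1 and Tyk2, and Irf9, 0 of 5 were called. Ifnar1 averaged 45.6 ± 9.64 CPM with ALDHbr cells and 44.7 ± 2.998 CPM with ALDHdim cells. Ifnar2 averaged 41.8 ± 9.14 and 36.7 ± 2.69 CPM. Jak1 differed by −0.18 (SE 0.16) on the log2 scale and Tyk2 by 0.02 (SE 0.23). Irf9, the DNA-binding subunit of ISGF3, stood at 58.9 ± 8.98 and 48.4 ± 9.88 CPM, a log2 fold change of 0.28 (SE 0.17) with an adjusted p of 0.999.

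Among 55 other interferon-stimulated genes in the table, 46 were tested and 0 were called, with 29 estimates below 0, 17 above 0 and a median of −0.02. Of these 46, 1 had an unadjusted p under 0.05 in edgeR, and 3.71% of all tested genes did, so the count does not set the list apart. The 1 gene was Slfn5, a Schlafen family gene, at 94.1 ± 11.7 CPM against 123 ± 18.3 CPM in ALDHdim recipients (log2 fold change −0.38, SE 0.14, adjusted p = 0.999). The next by p were Xaf1, a promoter of apoptosis, at 0.38 (SE 0.21), Ddx60, a helicase of antiviral signalling, at 0.48 (SE 0.27), and Ifih1, the RNA sensor MDA5, at 0.24 (SE 0.17). The 9 genes below the count filter were Mx1, Mx2, Oas1a, Oas1g, Oas2, Oas3, Oasl1, Ifi213 and Slfn8. Mx1, an antiviral GTPase, averaged 4.70 ± 1.79 and 4.69 ± 2.94 CPM.

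The sensors upstream of interferon had 0 of 8 called, with 3 below 0 and 5 above. Irf3, the factor that starts transcription of interferon beta, differed by 0.27 (SE 0.17), the adaptor Ticam1 by −0.32 (SE 0.28), Sting1, which relays cytosolic DNA sensing, by −0.27 (SE 0.26), and the adaptor Myd88 by 0.06 (SE 0.15). In the Isg15 conjugation cycle, 0 of 6 were called. Ube2l6, the conjugating enzyme, differed by 0.09 (SE 0.21), the ligase Herc6 by 0.09 (SE 0.28) and Trim25, a ligase that Isg15 modifies, by −0.21 (SE 0.19). Among the negative regulators 0 of 5 were called. Socs1 differed by 0.25 (SE 0.32), Socs3 by 0.19 (SE 0.40), Pias1 by −0.10 (SE 0.16) and the phosphatase Ptpn6 by 0.08 (SE 0.20).

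Type II interferon shares many targets with type I. Ifng, its only ligand, had 1 count in all 10 libraries together. Of 14 tested genes of its receptor and response, 11 had estimates below 0 and 3 above, with a median of −0.08 and 0 called. Those of smallest p were the GTPases Ifi47 (−0.22, SE 0.16), Irgm2 (−0.28, SE 0.21) and Igtp (−0.24, SE 0.22) and the receptor chain Ifngr2 (0.18, SE 0.15).

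Across the 10 libraries, the score of the 9 genes went with several scores. Among them were those of the other interferon genes and of macrophage and fibroblast markers, the last in separate clusters of libraries. Outside the 9, 17.1% of all tested genes had r above 0.5 with the score. Scores are means of centred log2 CPM, the points share depth and scaling, and no p is given. With the 46 other interferon-stimulated genes, r was 0.87 and rho 0.87 (n = 10), and r was 0.82 without the 2 libraries farthest from the median. With the 14 type II genes, r was 0.89 and rho 0.90, or 0.83 without the 2 farthest. For the 8 tested sensors upstream of interferon, r was 0.84 and rho 0.84, or 0.82 without the 2 farthest. With 9 macrophage markers (among them Csf1r, Adgre1 and the C1q chains), r was 0.81 and rho 0.87, or 0.77 without the 2 farthest. None of those 9 markers was at 0 in any library, and their summed level ran from 1344 to 1741 CPM with ALDHbr cells and from 1106 to 2182 CPM with ALDHdim cells. With 6 epithelial markers the relation was inverse, r = −0.78 and rho = −0.78, or −0.61 without the 2 farthest. Lung epithelium was well represented throughout, the summed level of those markers being 36689 to 90706 CPM with ALDHbr cells and 32515 to 70695 CPM with ALDHdim cells.

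Fibroblast markers (Col1a1, Col1a2, Col3a1, Pdgfra, Dcn and Lum) split the libraries, 3 with scores from −0.77 to −0.59 and 7 with scores from 0.13 to 0.60. The 3 were ALDHbr 2, ALDHbr 3 and ALDHdim 2, which were also the 3 of lowest interferon score. Over all 10 libraries r was 0.88 and rho 0.84, or 0.81 without the 2 farthest, and these values span the split. Within the 7 others, r was 0.64 and rho 0.57. The r values for macrophage and epithelial markers above include the same 3 libraries, so they are not comparable with that of the 7. These data do not rank the fibroblast and macrophage relations. The summed level of the fibroblast markers ran from 1146 to 2734 CPM with ALDHbr cells and from 1244 to 3518 CPM with ALDHdim cells. In bulk tissue, fewer cells of a type and less RNA per cell cannot be told apart, and the part of tissue composition in the interferon levels was not tested. Neutrophil markers (r = −0.13, rho = 0.20) and T and NK cell markers (r = −0.10, rho = −0.04) had values near 0. For inflammatory monocytes r was 0.03, for endothelium −0.37 and for B and plasma cells 0.42. Without the 2 libraries farthest from the median of each score, r was −0.11 for monocytes, −0.42 for endothelium, 0.21 for neutrophils, 0.12 for T and NK cells and 0.77 for B and plasma cells, as high as for macrophages. For plasmacytoid dendritic cells r was −0.52, on 2 tested genes, and −0.06 without the 2 farthest libraries. No marker of any of these cell types was called between the groups, though estimates were below 0 for all 6 fibroblast, all 6 tested neutrophil and all 6 endothelial markers, with medians of −0.35, −0.88 and −0.09. They were also below 0 for 8 of 9 macrophage and 4 of 5 monocyte markers, with medians of −0.12 and −0.16, and above 0 for 5 of 6 B and plasma cell markers, with a median of 0.33.

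The 9 genes did not share these relations equally. With the macrophage score, r was 0.89 for Isg15, 0.79 for Irf7, 0.78 for Ifit1, 0.73 for Usp18, 0.61 for Bst2 and 0.56 for Ifit3. It was 0.44 for Oasl2, 0.26 for Rtp4 and 0.19 for Stat2. With the epithelial score, r was −0.86 for Isg15 and −0.85 for Ifit1, and it was −0.16 for Oasl2, −0.21 for Rtp4 and −0.21 for Stat2. Stat2 and Rtp4, which went apart from Isg15 in the pairs above, thus had low values with both of these scores. With the fibroblast score, r ran from 0.43 for Oasl2 to 0.90 for Irf7, with 0.67 for Stat2, 0.61 for Rtp4 and 0.56 for Isg15. Without the 2 farthest libraries it was −0.02 for Stat2, 0.30 for Rtp4 and 0.72 for Isg15. With the endothelial score, r ran from −0.87 for Isg15 to 0.43 for Stat2, or −0.73 and 0.07 without the 2 farthest. With the other interferon-stimulated genes, r was 0.61 for Stat2, 0.62 for Rtp4 and 0.24 for Oasl2. With the type II genes it was 0.64 for Stat2, 0.68 for Rtp4 and 0.33 for Oasl2. Without the 2 farthest libraries r with the epithelial score was 0.36 for Stat2, 0.10 for Rtp4, −0.92 for Isg15 and −0.77 for Ifit1. With the macrophage score it was then 0.78 for Ifit3, 0.76 for Isg15, 0.70 for Ifit1 and 0.70 for Bst2. It was 0.58 for Irf7, 0.52 for Usp18, 0.40 for Rtp4, 0.23 for Stat2 and 0.11 for Oasl2.

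**Figure D5:**
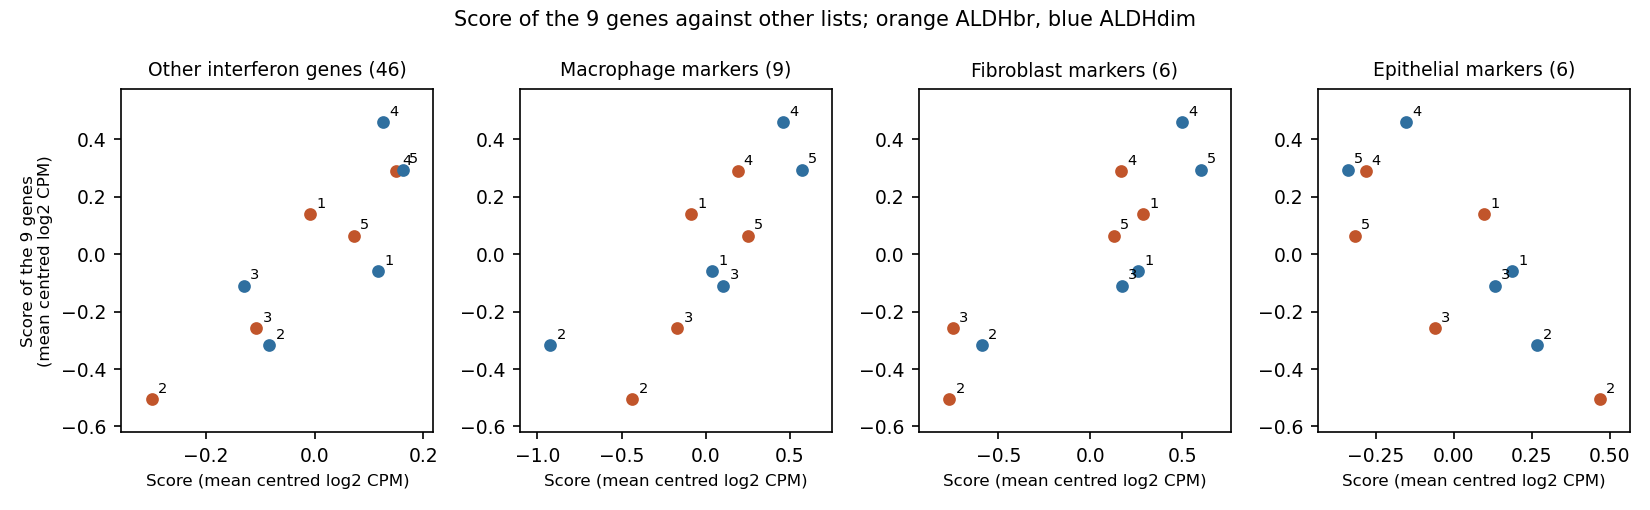
Score of the 9 genes (y axis) against the scores of 46 other interferon-stimulated genes and of macrophage, fibroblast and epithelial markers (x axes), all as mean centred log2 CPM, with 1 point per library numbered by replicate. Orange and blue points are mixed along each trend, and 3 libraries stand apart at low fibroblast scores.

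The 10 tested genes whose pattern was most like the score of the 9, of 10835 outside them, were Tmem176a, Psap, F7, Emilin1, Ifi207, Serpina3n, Pkm, Fn1, Clu and Bcl3. Their r ran from 0.97 for Tmem176a to 0.94 for Bcl3 over 10 libraries. Tmem176a is a membrane protein of myeloid cells, Psap the precursor of lysosomal saposins, Emilin1 a glycoprotein of elastic fibres and Fn1 fibronectin of the fibrotic matrix. Ifi207 belongs to the interferon-inducible p200 family and was not in the lists used here. None of the 10 was among the 46 other interferon-stimulated genes tested. The nearest of those was Lgals3bp, at rank 16 (r = 0.93), followed by Phf11d at rank 252 (r = 0.82) and Ifi27 at rank 319 (r = 0.80). Of the 46, 16 had r above 0.5, and 1850 of the 10835 genes (17.1%) did. At the other end Isg20, an exonuclease, had r = −0.58 and Ube2l6 r = −0.53.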

How the data were processed

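Lung RNA of 10 samples was sequenced by BRB-seq (named in the labels' protocols). This 3′ method barcodes each sample during reverse transcription and pools samples for amplification. The submitters' processing notes name HISAT2 2.2.1, featureCounts 2.0.1, Trim Galore 0.6.7, UMI-tools and DESeq2, and the builds GRCm38 and GRCh38, without roles. The authors deposited raw counts per gene, not normalized. The sources used here do not give UMI collapsing, strand or annotation. Without UMI collapsing, PCR copies would be counted as separate reads.

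Libraries held 588063 to 2002947 counts. Genes were kept by filterByExpr (minimum count 10), which left 97.3% of counts, scaled with TMM factors, and tested by the quasi-likelihood test of edgeR 4.0.16 with robust dispersions in R 4.3.3, with Benjamini-Hochberg adjustment over all tested genes. Standard errors were the fold change over the root of F. The fit was tested on 3 simulated data sets with 200 changed genes each. It recovered 15.3% of 1.5-fold, 64% of 2-fold, 89.3% of 3-fold and 94% of 4-fold changes, and 5.66% of calls were false. Log2 CPM used a prior count of 2. Gene positions and shared windows came from GENCODE M21 (GRCm38), and promoters from RefSeq. Named genes were all 9 members, the receptor list (less 1 gene not reported here), up to 4 genes of smallest p per list with at least 5 tested genes, any gene called, and the 10 most alike. The members and lists were chosen with earlier results of these data known. Others named (Ifit3b, Mx1, Siglech, Ifng, ligands, extremes of likeness) were chosen after their values were seen. Plots used matplotlib 3.10.9.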

Additional observations from a re-analysis of the deposited data

How the results depend on the processing

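Scaling (size factors of DESeq2, or upper quartile), the low-count filter (none, or mean count 10), the test (DESeq2 1.42.0, or limma-voom of limma 3.58.1 with sample weights), the replicate block and the libraries included were varied in turn. None of the 171 refitted estimates of the 9 genes passed 0.05 (adjusted p from 0.399 to 1.00), and 144 kept their sign. The 27 that did not were within 0.17 of 0 on the log2 scale. Without ALDHbr 3 and 5, Isg15 was −0.11, Oasl2 0.17, Stat2 0.057 and Rtp4 0.079. Ifit1 was 0.049 with limma-voom. Ifit3 was −0.019 with no filter and −0.020 without the libraries numbered 2. Neither change of scaling turned a sign.

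Leaving out each library gave −0.093 to 0.35 for Isg15, −0.20 to 0.10 for Ifit1, −0.069 to 0.21 for Ifit3, −0.089 to 0.28 for Irf7, −0.11 to 0.12 for Oasl2 and −0.14 to 0.045 for Usp18. Stat2 (−0.66 to −0.12), Rtp4 (−0.24 to −0.042) and Bst2 (−0.17 to −0.019) kept their sign. In these fits 3 to 9 of the 9 estimates were below 0. The count of all genes called was 0 except with no low-count filter, where it was 185 of 33347, none of them among the 9. Genes with an unadjusted p under 0.05 numbered 402 in edgeR, 727 with the replicate block, 690 with limma-voom, 1465 of 33347 with DESeq2, 3844 of 33347 with no filter and 1141 of 11024 without ALDHbr 1, where Stat2 was among them. The cause of these changes was not tested. Groups share replicate numbers, which the labels do not state to mark pairs, so the main fit did not pair them. Deviations of same-numbered libraries from their group means had r of 0.06, 0.37, 0.15, 0.26 and 0.28 for numbers 1 to 5. ALDHbr 2, 3 and 5 and ALDHdim 1, 2, 3 and 4 correlated best with their own number. ALDHbr 1 and 4 and ALDHdim 5 did not. Whether the numbers mark a shared batch was not tested. The SE was 0.17 with the replicate block and 0.34 without it for Isg15, and 0.19 and 0.20 for Usp18. With the replicate block 0 of the 9 genes and 0 of all genes were called, Irf7 was −0.0065, and 7 of the 9 estimates were below 0. All 9 genes passed the filter, so the test planned for genes below it was not run. In no set of 5 values (9 genes and 7 list scores in each group) did 1 library stand apart by Dixon's criterion. Depth limits Stat2 and Irf7 most, at 5 and 6 counts in their lowest library.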
